A study of Mus musculus with 2 samples.

Results

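The genes described here are 43 protein-coding genes of ER-associated degradation and protein translocation, out of 21866 protein-coding genes with a start site in the GENCODE M21 annotation of the mouse mm10 assembly. They were listed by name for their function, not by a cut on a measured value, but with earlier results of these data known. CHOP peaks were assigned to them by position. Their shares beside those of all genes are therefore descriptive. CHOP, the product of Ddit3, is a bZIP transcription factor of the C/EBP family that is made during prolonged endoplasmic reticulum (ER) stress and binds DNA mostly as a dimer with another C/EBP protein. Chromatin immunoprecipitation with an antibody to CHOP (B-3), followed by sequencing, gave its binding sites in whole liver of wild-type mice 8 h after an intraperitoneal dose of tunicamycin at 1 mg/kg body weight, a drug that blocks N-linked glycosylation and so leaves glycoproteins unfolded in the ER. Strain, sex and age are not given in the sources used here. The material of 3 mice was combined, so the immunoprecipitate is 1 library for all of them, beside 1 library of input DNA with the same treatment. Both libraries carry the same genotype and drug, and no untreated or CHOP-deficient liver was compared, so a peak shows binding above the local background in treated liver and not a change on treatment. With 1 pooled library there is no spread between animals, and no test between groups was possible. A peak list holds no expression values, so the liver label could not be checked against marker genes, and cell types within the liver are not told apart.

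ER-associated degradation (ERAD) removes proteins that fail to fold. Lectins and mannosidases recognise trimmed glycans on the client, a membrane ubiquitin ligase built around HRD1 and SEL1L moves it out of the ER and marks it with ubiquitin, and the p97 ATPase pulls it into the cytosol for the proteasome. Translocation is the opposite passage: the signal recognition particle brings a nascent chain to its receptor, and the SEC61 channel with its TRAP partner lets the chain into the ER. In the liver, which secretes most plasma proteins, both passages carry a heavy load, and many of the genes are textbook targets of the stress factors XBP1 and ATF6.

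A promoter peak was one whose summit, the highest point of the peak, lay within 1 kb of a start site of the gene. The size of a peak is given as the authors' fold enrichment, the reads piled up at the summit over the local background. Fold intervals are exact Poisson 95% intervals on the summit reads and cover counting error only.

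Of the 43 genes, 29 (67.4%, Wilson 95% interval 52.5 to 79.5%) had a CHOP promoter peak, against 27.9% of all protein-coding genes. The interval treats the genes as a random draw, which a list chosen with earlier results known is not. Nearly all of the list, 41 of 43 genes, has a CpG-rich promoter (observed/expected CpG of at least 0.6 within 500 bp of the outermost start), a class in which promoter peaks were common. Within that class 27 of the 41 genes (65.9%) had a promoter peak, against 51% of all 10189 CpG-rich genes, a smaller gap than over all genes. The remaining 2 genes, Ssr2 and Svip, also had one, beside 900 of the 11677 genes outside the CpG-rich class. Svip lies just below the cut (0.562), and the Ssr2 peak is at an internal start. A promoter fold of at least 10 was reached by 9 genes (20.9%), against 6.51% of all genes. By branch, 22 of 31 degradation genes (71%) and 7 of 12 translocation genes (58.3%) had a promoter peak. Among CpG-rich promoters it was 21 of 30 degradation genes (70%) and 6 of 11 translocation genes (54.5%), the latter close to the 51% of all CpG-rich genes. The median GC content within 500 bp of the outermost start was 60.5% in the 29 genes with a promoter peak and 57.1% in the 14 without. It was 55.0% over all genes and 62.0% over all 6100 genes with a promoter peak.

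**Figure D1:**
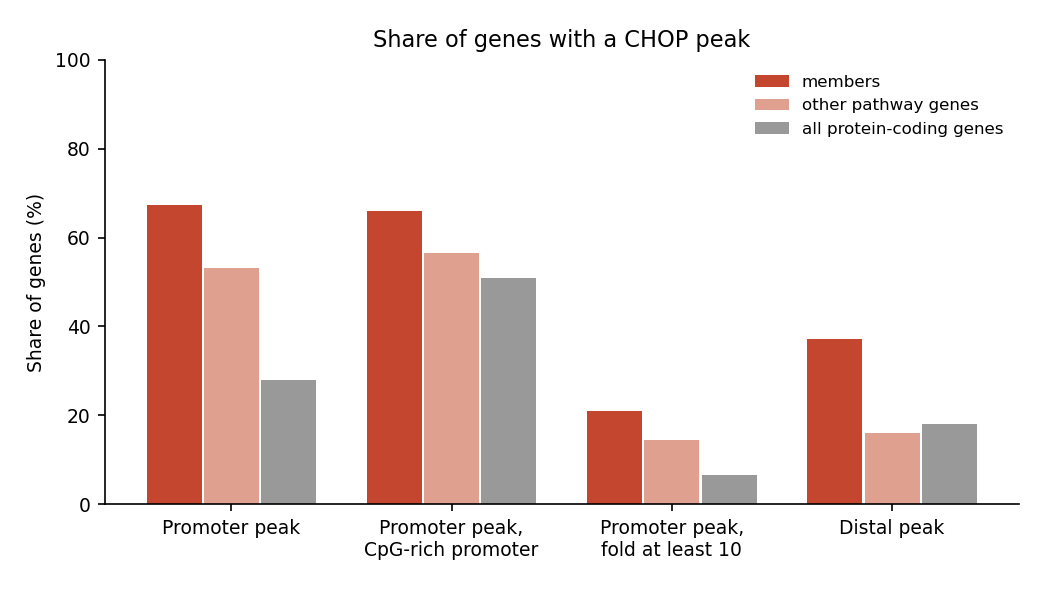
Share of genes (%, bars from 0) with a CHOP peak among the 43 members (red), 62 other genes of the same pathways (pale red) and all protein-coding genes (grey). The members' bar for any promoter peak stands at 67.4% against 27.9% for all genes, and the gap narrows to 65.9% against 51% among CpG-rich promoters.

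The peaks were of moderate height. The highest promoter fold per gene ran from 3.64 to 21.9 with a median of 8.23, beside a median of 6.86 and a highest value of 131 over all 6100 genes with a promoter peak. The median gene rested on 18 reads at the summit, against 14 over all such genes. In 8 of the 29 genes (27.6%) the whole interval of the fold lay above the median of all genes, against 20% of the 6100 genes with a promoter peak. These 8 were Ubqln1, Sec61b, Bag6, Erlec1, Herpud1, Rnf139, Sec62 and Ssr1. The whole interval lay below that median in 0 of the 29, against 2.15% of the 6100.

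**Figure D2:**
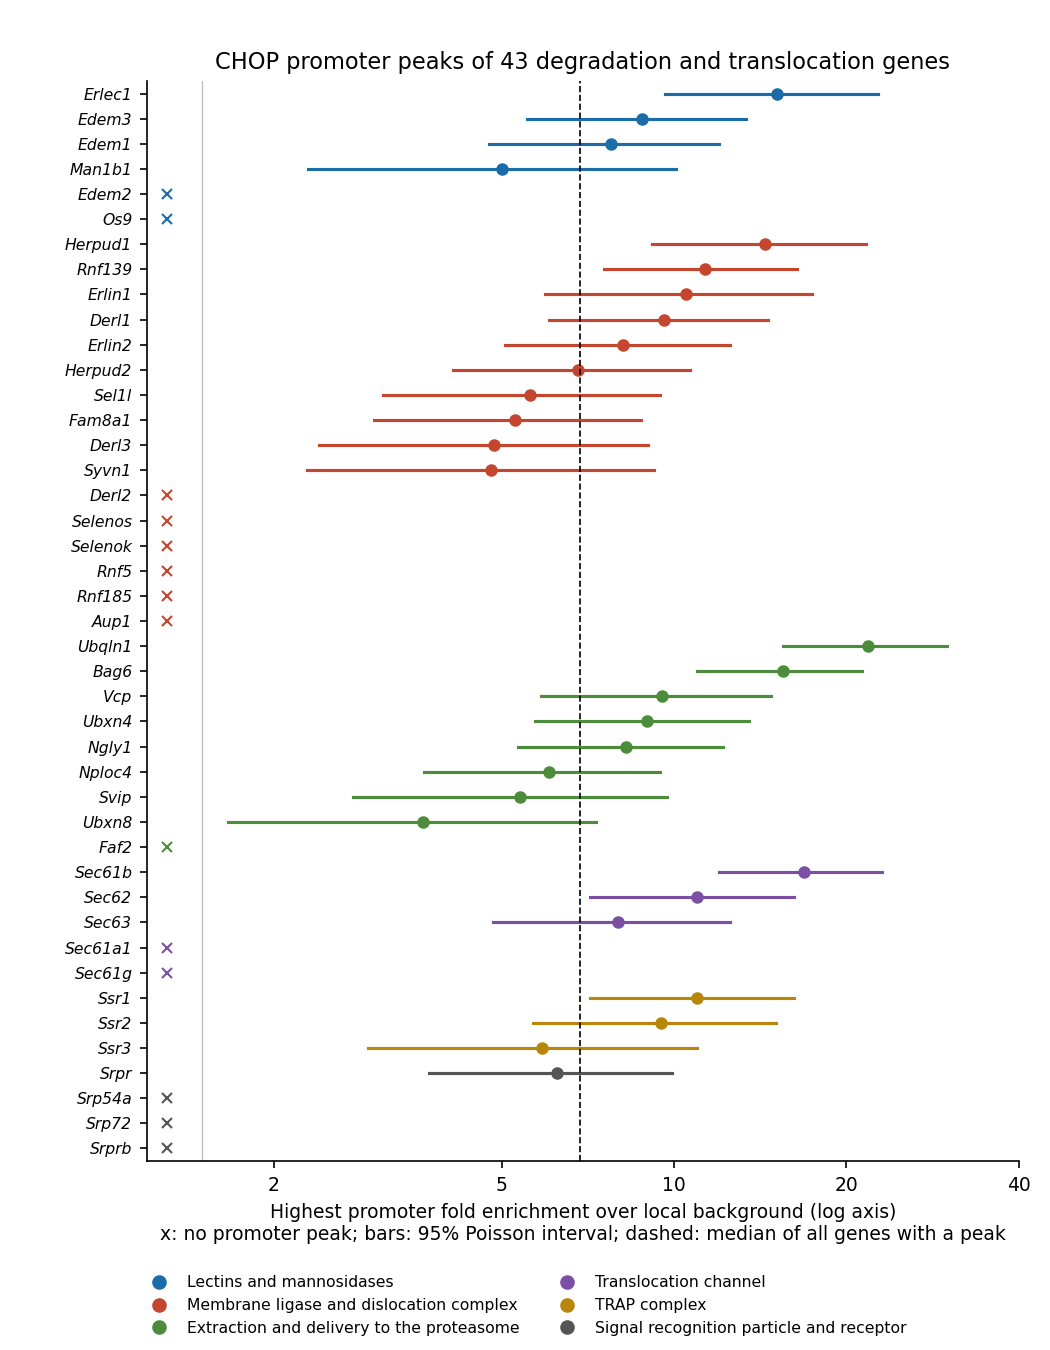
Highest promoter fold of each of the 43 genes (points, log axis) with its 95% Poisson interval (bars), coloured by role, with a cross for a gene without a promoter peak. The dashed line is the median of all genes with a promoter peak (6.86). Ubqln1 reaches 21.9, and most intervals cross the line.

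The DNA under the 6 strongest promoter summits is shown first, because these are the promoters of the list with the highest fold. Each sequence is read 5′ to 3′ on the strand of the gene from GRCm38.p6 (mm10), covers the bases within 50 bp of the summit that are in no annotated UTR, except at Sec61b and Erlec1, where a UTR of the neighbouring gene reaches into the window and 30 bases are given, around the GC box and around the summit. Capitals mark a match to one of the 14 motifs searched.

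Ubqln1, chr13:58215885-58215985, minus strand: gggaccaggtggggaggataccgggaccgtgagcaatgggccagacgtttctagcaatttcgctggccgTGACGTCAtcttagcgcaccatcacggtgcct
Sec61b, chr4:47474331-47474360, plus strand: ctcctgcaagctCCGCCCctggccccctct
Bag6, chr17:35135097-35135177, plus strand: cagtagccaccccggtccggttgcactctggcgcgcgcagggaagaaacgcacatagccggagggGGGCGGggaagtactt
Erlec1, chr11:30954482-30954511, minus strand: cgggcctctgcgtttgagtccaaccgctag
Herpud1, chr8:94386196-94386296, plus strand: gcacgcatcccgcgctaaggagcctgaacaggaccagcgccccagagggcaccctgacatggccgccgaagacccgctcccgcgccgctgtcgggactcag
Rnf139, chr15:58888991-58889091, plus strand: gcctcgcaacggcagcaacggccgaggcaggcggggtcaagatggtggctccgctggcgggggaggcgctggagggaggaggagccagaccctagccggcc

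The capitals in the Ubqln1 window are a CRE palindrome, the site of CREB and ATF dimers, whose centre lies 22.5 bp from the summit. In the Sec61b and Bag6 windows they are a GC box, the site of SP factors. None of the 14 motifs matched within 50 bp of the summits of Erlec1, Herpud1 or Rnf139. The window of Sec61b also holds an NRF1 site, outside the stretch shown.

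Among the lectins and mannosidases that pick glycoproteins for degradation, 4 of 6 genes had a promoter peak. Erlec1, an ER lectin that reads trimmed glycans (chromosome 11, 30930774 to 30954335), had the highest at 15.1-fold (9.63 to 22.8, 21 reads), with its summit 344 bp upstream of its start. That summit lies only 77 bp inside the divergent gene Asb3, so the peak is nearer to the start of Asb3 than to that of Erlec1, and position cannot assign it to one of them.

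The EDEM proteins are mannosidase-like factors that mark misfolded glycoproteins, and 2 of the 3 genes had promoter peaks of similar height. Edem3 (chromosome 1) had one of 8.80-fold (5.54 to 13.4, 20 reads) in its 5′ UTR, 78 bp from a start site, and a weaker one of 8.25-fold on 10 reads at 966 bp upstream, the summit closest to the 1 kb limit from inside. Edem1 (chromosome 6, 108828641 to 108859356), a classical XBP1 target, had a peak of 7.75-fold (4.76 to 12.0, 18 reads) in its first coding exon, 142 bp downstream of the start. The 2 intervals overlap over most of their length. Man1b1, the mannosidase that trims the first mannose of the middle branch, had a low peak of 5.01-fold on 6 reads (2.29 to 10.1).

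Edem2 and Os9, a lectin of the same family as Erlec1, had no peak at the promoter and none assigned at a distance. The summit nearest to Edem2 lay 11219 bp upstream and had a fold of 27.4 (19.95 to 36.9), but another gene, Gm17581, starts closer to it. The nearest summit to Os9 lay 44396 bp away, 302 bp from the start of B4galnt1. Of the related lectins, Os9 thus had no promoter peak, and the summit of the peak counted for Erlec1 lay nearer to the start of Asb3. Whether Erlec1 and Os9 differ is therefore not settled by position.

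The membrane ligase and its partners form the largest group, with 10 of 16 genes carrying a promoter peak and 3 of them at a fold of at least 10. Herpud1, a membrane ubiquitin-like protein that organises the ligase and is among the most stress-inducible ERAD genes (chromosome 8, 94386438 to 94395377), led with 14.4-fold (9.16 to 21.7, 21 reads), its summit 192 bp upstream of a start site. Its paralogue Herpud2 had 6.79-fold (4.11 to 10.7, 17 reads), with the summit 526 bp downstream in the 5′ UTR. The intervals of the paralogues overlap, and Herpud1 has 21 against 17 reads, over a local background of 0.528 against 1.65 reads. Rnf139, a ligase also known as TRC8, reached 11.3-fold (7.54 to 16.4, 26 reads) at 188 bp upstream.

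The core ligase itself was in the lower part of the list. Syvn1, which encodes HRD1, the ubiquitin ligase at the centre of the complex (chromosome 19, 6046576 to 6053712), had a promoter peak of 4.79-fold on 7 reads (2.28 to 9.24). Sel1l, its scaffold partner (chromosome 12, 91806043 to 91849157), had 5.60-fold on 12 reads (3.10 to 9.47), with the summit in its first coding exon. Fam8a1, a cofactor that helps HRD1 assemble, had peaks of 4.82-fold and 5.28-fold on 7 and 13 reads. Syvn1 ranked 5278th and Sel1l 4345th of the 6100 genes with a promoter peak, whereas Herpud1 ranked 653rd. The intervals of Syvn1 and Sel1l hold the median of all these genes (6.86) and overlap the lower end of that of Herpud1 (9.16 to 21.7). Such an overlap does not by itself decide whether Herpud1 differs from them, and the difference was not tested.

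Within the derlins, the channel-like proteins of dislocation, the 3 paralogues differed. Derl1 (chromosome 15, 57869502 to 57892448) had a promoter peak of 9.60-fold (6.04 to 14.6, 20 reads) in its 5′ UTR, 64 bp from the start. Derl3, the derlin known for strong induction by stress, had one of 4.84-fold on 8 reads (2.40 to 9.02), 25 bp upstream. Derl2 had none, and the nearest summit, 14772 bp away, lay 33 bp from the start of Dhx33. The intervals of Derl1 and Derl3 overlap, which does not by itself decide their order, and the difference was not tested.

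The erlins, which form ring-like scaffolds for degradation of membrane proteins, both had promoter peaks. Erlin1 (chromosome 19) had a pair, of 10.5-fold on 13 reads (5.94 to 17.4) in an intron, 224 bp upstream of an internal start site, and of 9.26-fold on 26 reads in the 5′ UTR. The second peak rests on more reads but over a higher background, which places it below the first by fold. Erlin2 (chromosome 8) had 8.16-fold (5.07 to 12.5, 19 reads).

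No promoter peak was found at Selenos, Selenok, Rnf5, Rnf185, Aup1 or Derl2. Selenos, the selenoprotein that recruits p97 to the membrane, came closest: summits of 4.97-fold on 6 reads each lay 1163 and 1782 bp upstream, just outside the limit. The nearest summits to Selenok, Aup1 and Rnf5 lay 40631, 15711 and 15559 bp away and were closer to other genes (Il17rb, Loxl3 and Egfl8). The paralogous ligases Rnf5 and Rnf185 were alike in lacking a promoter peak, though Rnf185 had a pair of intronic peaks of 6.14-fold and 4.06-fold, 18367 and 17346 bp into the gene.

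The proteins that extract the client and hand it to the proteasome had the highest share of peaks among the larger groups, 8 of 9 genes. Ubqln1, a shuttle that carries ubiquitinated proteins to the proteasome (chromosome 13, 58176156 to 58215653), had the strongest promoter peak of the whole list, 21.9-fold (15.5 to 30.04) on 36 reads. The peak was 1421 bp wide, the widest promoter peak of the list, ranked 243rd of 6100 genes, and had its summit 282 bp upstream of a start site and 22.5 bp from the centre of the CRE palindrome shown above. Bag6, a chaperone that holds exposed membrane segments (chromosome 17, 35135178 to 35147322), followed with 15.5-fold (11.0 to 21.3, 36 reads) at 31 bp upstream. The 2 intervals overlap.

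The p97 machine came next. Vcp, which encodes the p97 ATPase (chromosome 4, 42979963 to 43000507), had a peak of 9.55-fold (5.86 to 14.8, 18 reads) in its first intron, 420 bp from the start. Ubxn4, a p97 anchor in the ER membrane, had 8.97-fold on 21 reads, and Ngly1, the glycanase that strips glycans from extracted clients, 8.23-fold on 23 reads. The Ngly1 summit lay 69 bp from its own start and 222 bp from that of the divergent gene Oxsm.

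The remaining genes of the group were lower. Nploc4, a cofactor that binds ubiquitin chains for p97, had a promoter peak of 6.04-fold (3.66 to 9.47, 17 reads) and a stronger one of 14.4-fold on 21 reads at 1052 bp upstream, the closest summit outside the 1 kb limit. That distal peak has the same fold and reads as the promoter peak of Herpud1. Svip, an inhibitor of ERAD, had 5.38-fold on 9 reads. Ubxn8, another p97 anchor, had the lowest promoter peak of the list at 3.64-fold on 6 reads (1.66 to 7.31). Faf2, which recruits p97 to lipid droplets and the ER, had none, and the summit nearest to it, 10468 bp away, lay 24 bp from the start of Cltb.

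In the translocation machinery, 7 of 12 genes had a promoter peak. Of the channel subunits, Sec61b, the small beta subunit (chromosome 4, 47474658 to 47483242), had 16.9-fold on 37 reads (12.0 to 23.1), the second highest fold of the list. Its summit lay 331 bp upstream of Sec61b but 6 bp inside the divergent gene Alg2, a mannosyltransferase that builds the N-glycan precursor, so this peak too cannot be assigned by position. Sec61a1, the pore itself (chromosome 6), and Sec61g, the gamma subunit (chromosome 11), had no promoter or distal peak. The nearest summits lay 72418 and 80712 bp away, the longest distances of the list apart from Srp54a. The pore subunit encoded at another locus, Sec61a2, had a peak of 4.29-fold on 7 reads.

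The accessory channel proteins both had promoter peaks. Sec62, which assists post-translational translocation, had 11.0-fold (7.12 to 16.2, 23 reads) in its 5′ UTR, 341 bp from the start. Sec63, the J-domain partner that brings BiP to the channel, had summits at 65 and 500 bp downstream of its start, of 7.53-fold on 13 reads and 7.98-fold on 17.

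All 3 listed subunits of TRAP, the complex that helps some signal sequences enter the channel, had a promoter peak. Ssr1 had 11.0-fold (7.12 to 16.2, 23 reads) at 48 bp upstream and a second of 4.31-fold on 13 reads. Ssr2 had 9.49-fold (5.66 to 15.1, 16 reads) at an internal start of a gene whose outermost promoter is CpG-poor (observed/expected CpG of 0.196). Ssr3 had 5.89-fold on 8 reads (2.92 to 11.0).

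The signal recognition particle and its receptor had the fewest, 1 of 4 genes. Srpr, the receptor subunit that docks the particle, had 6.26-fold on 16 reads (3.74 to 9.93), 290 bp upstream of its start and 2 bp upstream of that of the divergent gene Tirap. Srprb, Srp72 and Srp54a had none. Srp72 had 1 intronic peak of 6.16-fold on 8 reads, 8704 bp into the gene. Srp54a has near-identical neighbours, Srp54b and Srp54c: of the 50-base words within 500 bp of its start, 34.1% recur within 250 kb on chromosome 12, against 0% for Srp72, Sec61g and Sec61a1. Reads from repeated words cannot be placed uniquely, and the part of this in the lack of a peak at the 3 Srp54 genes was not tested.

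**Figure D3:**
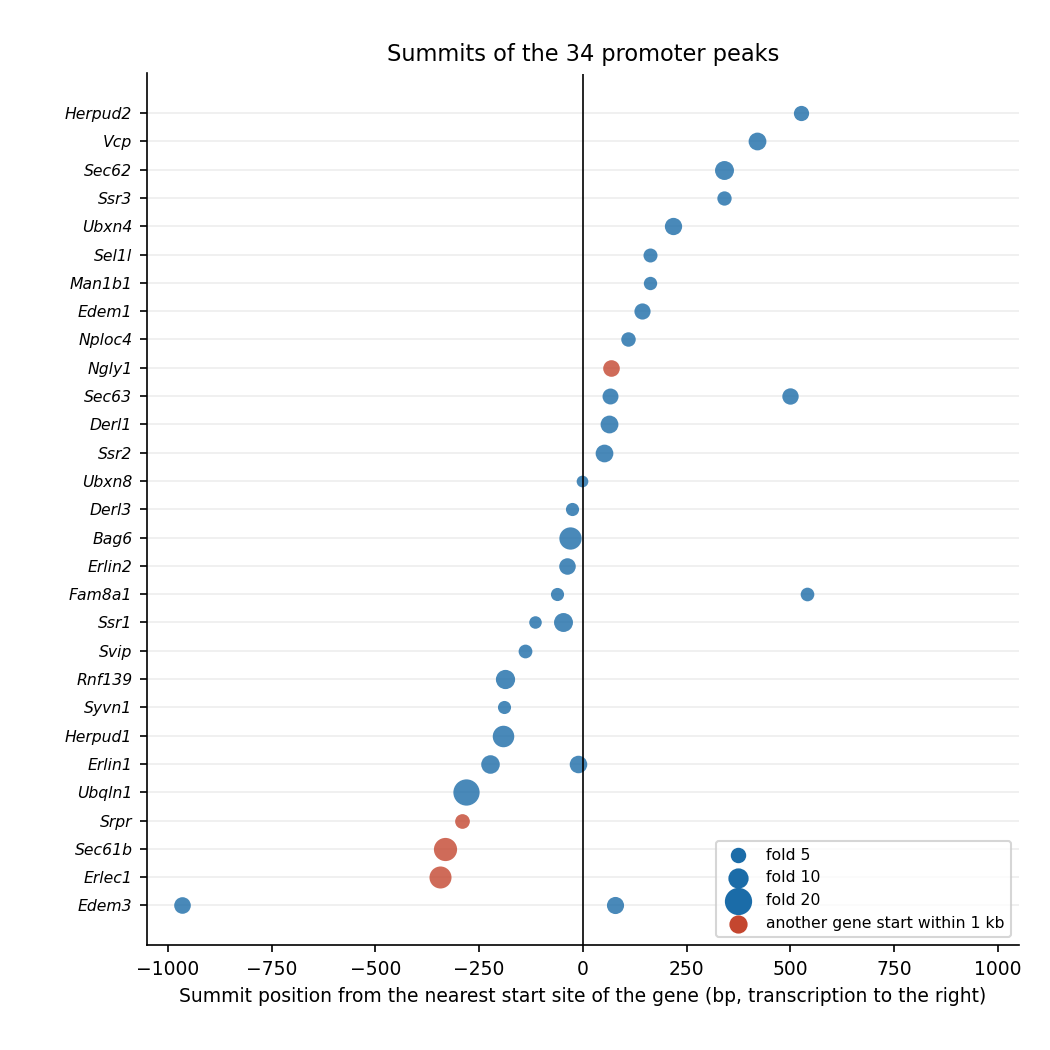
Position of the 34 promoter summits of the 29 genes relative to the nearest start site of the gene (bp), with the point area growing with fold and red for peaks that also lie within 1 kb of another protein-coding start. The largest points, Ubqln1, Sec61b, Bag6, Erlec1 and Herpud1, all lie upstream of the start, between 344 and 31 bp.

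The position of the summits was not used to rank the genes. The 29 genes held 34 promoter peaks, since Edem3, Fam8a1, Erlin1, Sec63 and Ssr1 had 2 each. From the start of the listed gene, 18 of the 34 summits (52.9%) were upstream, at a median distance of 162 bp. From the nearest start of any protein-coding gene, 16 of 34 (47.1%) were upstream, against 37.2% of all 6306 promoter peaks measured in that way. The median distance from the nearest start was 127.5 bp, against 108 bp for all promoter peaks. By annotation, 12 summits were upstream of the gene, 11 in a 5′ UTR, 6 in an intron and 5 in a coding exon. At the 6 genes of highest fold the summit lay upstream of the listed gene, though at Erlec1 and Sec61b it lay inside the neighbour.

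Peaks shared with a neighbour were about as frequent as elsewhere. In 4 of the 34 peaks (11.8%), those of Erlec1, Sec61b, Srpr and Ngly1, another protein-coding gene starts within 1 kb, compared with 10.5% of all promoter peaks. In 3 of these, Erlec1, Sec61b and Srpr, the neighbour is the nearer gene. The folds of Sec61b and Erlec1, among the 4 highest of the list, thus belong to summits nearer to Alg2 and Asb3 than to the listed genes.

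Distal peaks, those more than 1 kb but within 50 kb from the gene whose start is nearest, were found at 16 genes (37.2%), against 18% of all genes. Any assigned peak, promoter or distal, was found at 32 genes (74.4%), against 38.2%, and 11 genes had neither. Herpud1 stood out by number, with 5 distal peaks beside its promoter peak. A total of at least 6 peaks was found at 40 of all protein-coding genes (0.183%), and Herpud1 was the only member among them. Its distal summits lay 14664, 8953 and 8312 bp upstream of the first start, and 2743 and 6713 bp downstream of an internal start. The last of them lies beyond the end of the gene. In this order the folds were 15, 5.18, 5.25, 8.25 and 6 on 19, 10, 6, 10 and 7 reads. Apart from the first, these peaks rest on 10 reads or fewer. Repeats of the genome cover 61.4%, 100%, 25.7%, 64.4% and 0% of the bases within 50 bp of the 5 summits.

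The distal peaks rested on few reads, as distal peaks did in general. Their median fold was 6.14 on a median of 9 reads, beside 6.75 on 10 reads over all 5297 distal peaks. Of the 23, 17 (73.9%) rested on 10 or fewer reads, against 56.7% of all distal peaks. In 12 (52.2%, 45.2% of all) the background was at its genome-wide minimum of 0.333 reads, where a single read moves the fold most. The strongest by far belonged to Ssr1, 33.6-fold on 44 reads, 21540 bp downstream of an internal start, in the 3′ UTR. That peak was 317 bp wide, and the first of the Herpud1 peaks and the one of Herpud2 (15-fold, 3406 bp into the gene) were 303 and 313 bp wide. A width of 290 to 340 bp was found in 4 of the 23 distal peaks (17.4%), in 22% of all distal peaks and in 17.3% of all 14157 peaks, and its part in these folds was not tested. Without peaks of that width, 14 of the 43 genes kept a distal peak, and Sel1l, Syvn1 and Ubxn4 lost their promoter peak. The 27.4-fold peak nearest to Edem2, 312 bp wide, is also of this width.

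**Figure D4:**
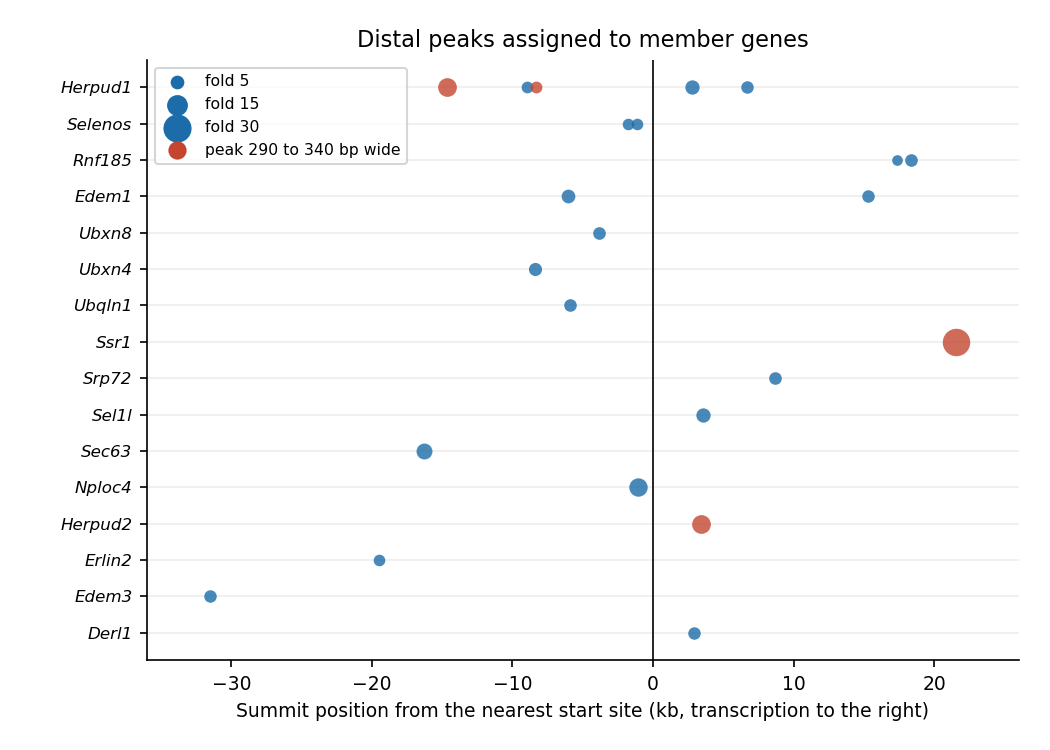
Position of the 23 distal summits at 16 genes relative to the nearest start site (kb), with point area growing with fold and red for peaks 290 to 340 bp wide. Herpud1 has 5 of the 23, and the largest point is the 33.6-fold peak in the 3′ UTR of Ssr1.

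Matches to known sequence motifs were counted within 50 bp of each summit, on both strands. The C/EBP-ATF composite, TGATGNAAT, at which ATF4 and C/EBP proteins including CHOP bind, was found at 0 of the 34 promoter summits of the list, against 46 of 6306 (0.729%) over all promoter peaks and 0.21% of windows of the same length at gene starts. The composite was more frequent at stronger peaks: 0.4% of promoter peaks under 10-fold, 1.57% of those from 10 to 22 and 4.07% of those at 22 or more, a range above every promoter peak of this list (the bounds were set after the folds were known). The C/EBP palindrome TTGCGCAA was likewise found at 0 of 34 and at 0.159% of all promoter peaks. At shares this low, 34 peaks are too few to tell 0 from the share over all promoter peaks.

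A single composite lay at a peak assigned to the list, the one 1163 bp upstream of Selenos, with its centre 21 bp from the summit. That is 1 of the 23 distal peaks of the list (4.35%), near the 4.08% of all distal peaks. It is shown because it is the only one of the 57 peaks assigned to the list with the composite at its summit, though it rests on 6 reads. The composite, on the reverse strand here, is in capitals.

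Selenos, chr7:66078436-66078536, plus strand: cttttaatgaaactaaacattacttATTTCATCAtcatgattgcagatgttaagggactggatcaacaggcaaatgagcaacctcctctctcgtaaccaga

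The shorter core TGCAAT, part of the site described for CHOP with C/EBP partners and added to the search after the peaks had been seen, was found at 2 of the 34 summits (5.88%), those of Edem3 and Erlin1, against 3.47% of all promoter peaks. At distal peaks of the list it was found at 3 of 23 (13%), against 14.3% of all distal peaks. The Selenos window above is among these 3, with the core left in lower case. The GC box GGGCGG was by far the most common match, at 20 of 34 summits (58.8%), against 45.4% of all promoter peaks and 28.1% of gene-start windows. The CCAAT box, CCAAT, the site of NF-Y, was found at 3 summits (8.82%, 7.53% of all), the E-box CACGTG at 2 (5.88%, 5.41% of all), the NRF1 site GCGCNTGCG at 2 (5.88%, 5.36% of all) and the ETS site CCGGAAG at 3 (8.82%, 4.12% of all). The CRE palindrome TGACGTCA was found at Ubqln1 only (2.94%, 0.856% of all). The AP-1 site TGANTCA, the YY1 site AAGATGGC, and the UPRE core TGACGTGG were at none, with 1.09%, 1.40% and 0.301% of all promoter peaks.

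**Figure D5:**
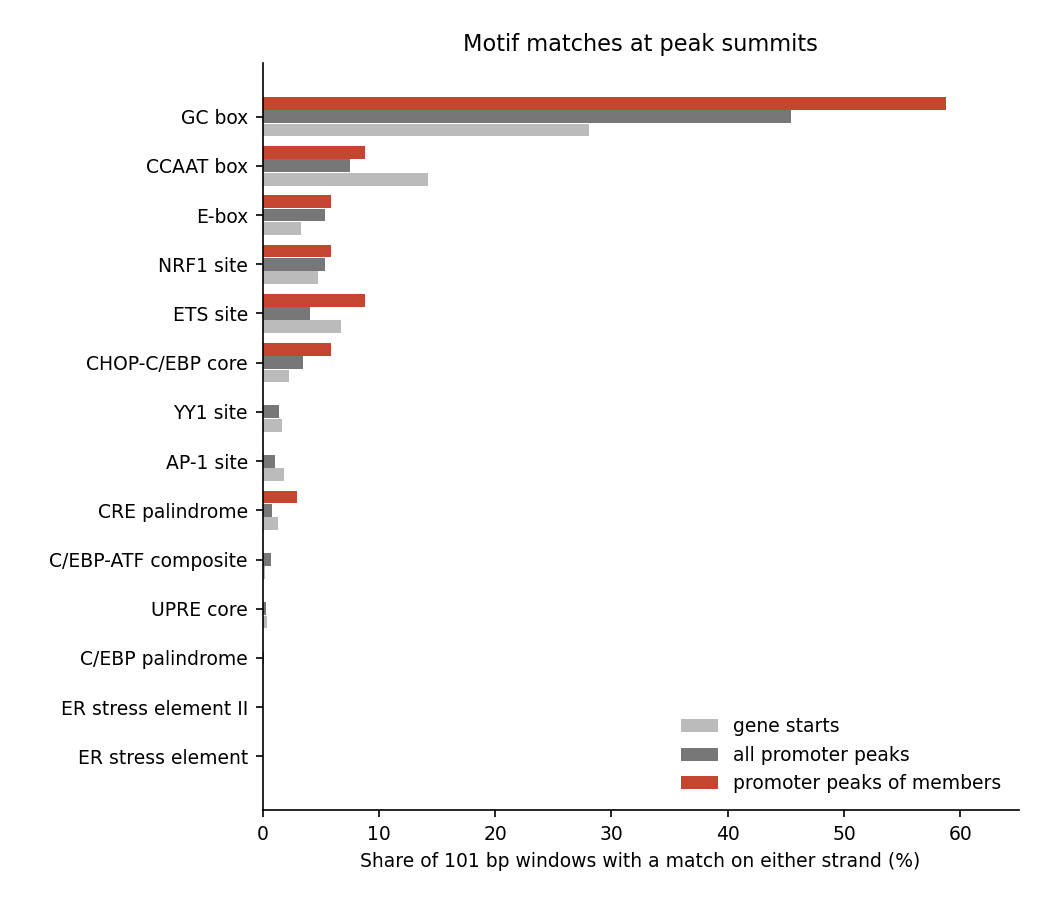
Share of windows reaching 50 bp to either side with a motif match on either strand (%, bars from 0) at the 34 promoter summits of the members (red), at all 6306 promoter summits (dark grey) and at the outermost start of every protein-coding gene (light grey). The GC box leads in all 3 sets (58.8%, 45.4% and 28.1%), and the C/EBP-ATF composite has no red bar.

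The elements through which XBP1 and ATF6 act were looked for in the RefSeq promoters of GRCm38.p6, from 250 bases before to 50 after each start, which were at hand for 34 of the 43 genes. The ER stress element, CCAAT and CCACG separated by 9 bases, occurs in 2 of them (5.88%), Syvn1 and Derl3, and in 29 of 17492 protein-coding genes (0.166%). The ER stress element II, ATTGG and CCACG separated by 1 base, occurs in Herpud1 (1 of 34, 2.94%) and in 11 of all genes (0.0629%). The UPRE core occurs in Vcp (2.94%, 0.823% of all genes), and the C/EBP palindrome in Man1b1 (2.94%, 0.246% of all). The first 4 genes are shown with the element in capitals, to set it beside the CHOP summit of the same promoter.

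Syvn1, chr19:6046522-6046560, plus strand: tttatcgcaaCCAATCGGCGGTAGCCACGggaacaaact
Derl3, chr10:75893232-75893270, plus strand: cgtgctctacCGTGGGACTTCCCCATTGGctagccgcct
Herpud1, chr8:94386367-94386397, plus strand: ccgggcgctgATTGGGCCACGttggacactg
Vcp, chr4:43000604-43000631, minus strand: tgcggccaatTGACGTGGcgttactagg

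All 4 genes had a CHOP promoter peak, as did 67.4% of the 43 genes and 51% of all CpG-rich genes. A link between element and peak was not tested. In none of the 4 did the summit lie on the element. The centre of the element was 349 bp from the summit at Syvn1, 137 bp at Derl3, 136 bp at Herpud1 and 530.5 bp at Vcp. Only the Herpud1 element lay inside the peak itself, which runs from 94386049 to 94386416. Syvn1 and Derl3, which carry the full ER stress element 35 and 147 bp before the start, were at the low end of the list by fold (4.79 and 4.84), and Herpud1, with the second form of the element 47 bp before the start, was near the top (14.4). The intervals of Syvn1 (2.28 to 9.24) and Herpud1 (9.16 to 21.7) overlap only from 9.16 to 9.24, and the difference in fold was not tested. The ER stress elements were found at 0 (first form) and 0.0317% (second form) of all 6306 promoter summits.

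Further genes of the same pathways, outside the list of 43, were counted in the same way. Of 62 such genes, 33 (53.2%) had a promoter peak, against 27.9% of all genes. A fold of at least 10 was reached by 9 (14.5%), against 6.51% of all genes. Among the 53 with a CpG-rich promoter, 30 (56.6%) had a promoter peak, beside the 51% of all CpG-rich genes. The highest were March6, a ligase of the ER membrane, at 20.1-fold (14.4 to 27.3, 39 reads), Dnajc10, a disulfide reductase that unties ERAD clients, at 16.8-fold on 39 reads, Ube2j1, the ubiquitin-conjugating enzyme that serves HRD1, at 14.7-fold on 38 reads, Sec11c, a signal peptidase subunit, at 14.4-fold on 22 reads, Get4, a partner of Bag6, at 13.4-fold on 38 reads, and Rad23b, a proteasome shuttle like Ubqln1, at 12.6-fold on 25 reads. Distal peaks were found at 10 of the 62 (16.1%), beside the 18% of all genes. All 5 genes counted for the signal peptidase, which cuts the signal sequence (Spcs1, Spcs2, Spcs3, Sec11a and Sec11c), had a promoter peak, from 4.84-fold at Sec11a to 14.4-fold at Sec11c. Of the 7 genes counted for the ER membrane complex, an insertase for membrane segments (Emc1, Emc2, Emc3, Emc4, Emc6, Emc7 and Mmgt1), Emc6 alone had one (7.33-fold, 16 reads), and further subunits were not counted. Of the further signal recognition particle genes, Srp14 and Srp19 had one (10.8-fold and 11.7-fold), and Srp9, Srp68, Srp54b and Srp54c did not. These small subgroups stand beside 53.2% of the 62 genes and 27.9% of all genes, and their differences were not tested.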

How the data were processed

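The measurement is CHOP chromatin immunoprecipitation sequencing of 1 pooled library (3 mice) with 1 input library, of which no peak or count file was used. Per the labels' protocols, reads were aligned to mm10 with Bowtie (at most 2 mismatches) and reads stacked beyond 2 at one position and strand were removed. Per the submitters' processing notes, SAMtools 1.9, MACS2 2.1.2 and ChIPseeker were used. For each of 14157 peaks the authors deposited a fold enrichment (a ratio of summit pileup to local background), −log10 p, −log10 q, a score and the summit offset. The score deposited with every peak is −log10 q times 10, to within 1, and was not used further. The summit reads and background were solved from the deposited fold, (pileup + 1)/(background + 1), and the Poisson −log10 p. All 14157 peaks were solved within 0.0001 (largest residual 3.13e-05), and the solver was tested on simulated data. Total depth is unknown, reads carry no molecular identifiers, and intervals cover counting error only.

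GENCODE M21 supplied the starts of protein-coding transcripts, and a promoter peak counted for every gene within 1 kb. The members and gene lists were chosen with earlier results of these data known. Genes named follow a rule: the 3 of highest promoter fold per role, Herpud1, Syvn1, Sel1l, Edem1, Vcp and Sec61a1, those without a promoter peak, and the 6 highest of the other pathway genes. Other members are named to account for all. The composition split, the TGCAAT core and the promoter element search were added after seeing the data. Sequences are from RefSeq GRCm38.p6. Python 3.11.15, numpy 2.4.6, pandas 2.3.3, scipy 1.17.1, pysam 0.24.0 and matplotlib 3.10.9 were used.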

Additional observations from a re-analysis of the deposited data

How the results depend on the processing

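The count of members with a promoter peak, 29, ran from 24 to 30 over 9 alternatives, all within 1.5 times of it, and the share over all genes from 21% to 30.3%. The lowest count came from peaks with −log10 q of at least 5, which dropped Syvn1, Derl3, Ubxn8, Svip and Man1b1. Giving each peak to the nearest start only dropped Erlec1, Sec61b and Srpr, leaving 26 genes, 7 of them at a fold of at least 10. Leaving out peaks 290 to 340 bp wide dropped Sel1l, Syvn1 and Ubxn4, leaving 26 genes. Summits within 3 kb added Selenos, and start sites of all transcripts added Srp72. The median fold ran from 8.19 to 9.23. The count of other pathway genes with a promoter peak, 33, ran from 22 to 35. The count of members with a distal peak, 16, ran from 13 to 17, and the share over all genes from 13.3% to 20.4%. The lowest count, 13, came from start sites of all transcripts, where the share over all genes was 18.1%. The count of member promoter peaks with the composite stayed at 0 with windows of 25 and 100 bp and with −log10 q of at least 5. The composite is too rare for this count to show an absence particular to the list. Of 245 single-gene folds under the alternatives, 243 stayed within the counting interval of the reported value, and the 2 exceptions were Nploc4, at 14.4-fold with summits within 3 kb or with peak intervals in place of summits. The alternatives filter or reassign the same peaks, so a gene that keeps its peak keeps its fold. Genes that lose their peak are left out, so this agreement is no measure of robustness. Members with a promoter peak were also counted among CpG-rich promoters, an alternative chosen after seeing the data (27 genes). No paired analysis was possible because there is 1 immunoprecipitated library and no test. Depth limits the weakest genes most: Syvn1, Ubxn8 and Man1b1 rest on 6 or 7 reads.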
